A study of Mus musculus with 13 samples.

Results

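The transcripts of cardiac myosin and of its binding protein were followed in the left ventricle of mice after myocardial infarction (MI). The 8 genes were chosen by symbol from 35793 gene entries with distinct symbols. They are the heavy chains Myh6, Myh7 and Myh7b, the ventricular light chains Myl2 and Myl3, the atrial light chains Myl4 and Myl7, and cardiac myosin binding protein C, Mybpc3. RNA sequencing covered 13 libraries. Of these, 5 came from mice given MI and the antibody FG-3149 (MI+FG-3149), which the labels describe as a mouse antibody against connective tissue growth factor (CTGF). Another 5 came from mice given MI and an IgG control antibody (MI+IgG), and 3 from mice with sham surgery and no antibody. MI was made by permanent ligation of the left anterior descending coronary artery (LAD), and both antibodies carried the dose label 10 mg/kg. All mice were of strain C57BL/6JO1aHsd and 8 to 10 weeks old when treatment began, and the time point was labelled 1W+6W. The RNA came from left ventricle outside the ischaemic zone. No infarcted group was without an antibody and sham had none, so the effects of surgery and of antibody in the comparisons with sham cannot be told apart.

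Cardiac myosin is the motor of the thick filament: its heavy chains split ATP and pull on actin, and essential and regulatory light chains stiffen and tune the lever arm. The adult mouse ventricle uses mostly Myh6, the fast alpha heavy chain, while Myh7, the slower beta heavy chain, prevails before birth and is known to return under load. Myl2 is the regulatory and Myl3 the essential light chain of the ventricle, Myl7 and Myl4 are their atrial counterparts, and Mybpc3 binds the filament and restrains the myosin heads. Myh7b, an ancient relative of both heavy chains, is expressed at low levels in heart and slow muscle.

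Each of the 3 heavy chain genes hosts a microRNA of the muscle-specific miR-208 and miR-499 group within an intron. The mature sequences are shown because the genes that moved in opposite directions carry near-identical microRNAs. Letters are 5′ to 3′, from RefSeq on GRCm38.p6, and the capitals mark the seed (bases 2 to 8).
miR-208a-3p in Myh6, chr14:54949072-54949093, minus strand: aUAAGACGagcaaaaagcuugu
miR-208b-3p in Myh7, chr14:54975710-54975731, minus strand: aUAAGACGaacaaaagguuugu
miR-499-5p in Myh7b, chr2:155622893-155622913, plus strand: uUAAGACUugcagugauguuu
The microRNAs of Myh6 and Myh7 shared the same seed and differed at 3 of 22 bases, and the seed of miR-499-5p differed from theirs at 1 of 7. These libraries were made from polyadenylated mRNA, in which mature microRNAs are not captured, and the entries for the 3 microRNA genes held at most 0.51 CPM (counts scaled to the library total) in any library. The host transcripts are therefore what was measured.

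Library totals were 10954922 to 12794823 estimated counts with FG-3149, 13084735 to 17567238 with IgG and 12025880 to 14999813 in sham. All 13 libraries were run on 1 flow cell. The tissue label was set against markers of cell types. Irx4, Irx5 and Hey2, transcription factors of ventricular myocytes, summed to 67.4 to 79.2 CPM with FG-3149, 50.7 to 70.0 CPM with IgG and 52.7 to 61.8 CPM in sham. Of 8 general cardiomyocyte genes, 1 was higher and 3 were lower in each infarcted group than in sham, and their summed level was 35938 to 41099 CPM with FG-3149, 35709 to 37797 CPM with IgG and 40068 to 42498 CPM in sham. All 4 macrophage genes and 3 of 4 fibroblast genes were higher in both infarcted groups than in sham. No fibroblast or macrophage gene was called between the antibodies. Over all tested genes, 17.8% were higher and 15.9% lower in MI+IgG versus sham. In MI+FG-3149 versus sham 15.6% were higher and 13.9% lower, and 1.07% were called between the antibodies. The macrophage genes summed to 311 to 535 CPM with FG-3149, 310 to 450 CPM with IgG and 228 to 236 CPM in sham, and the fibroblast genes to 996 to 1157 CPM with FG-3149, 1118 to 1538 CPM with IgG and 744 to 786 CPM in sham. The part of these cells in the results below was not tested, and in such bulk tissue fewer cells of a type and less RNA per cell cannot be told apart.

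Levels were compared between genes per transcript length (RPKM). In MI+FG-3149 the mean order was Myl2 at 14517 RPKM, Myl3 at 7240, Myh6 at 4066, Mybpc3 at 1518, Myh7 at 405, Myh7b at 18.0, Myl4 at 2.90 and Myl7 at 0.173 RPKM. The same order held by the means in MI+IgG, where Myh7 stood at 581 RPKM, Myh7b at 15.1 RPKM, Myl4 at 13.7 RPKM and Myl7 at 7.67 RPKM. In sham the order was again the same, with Myl2 at 18586 RPKM, Myl3 at 6724, Myh6 at 4994, Mybpc3 at 1047, Myh7 at 38.1, Myh7b at 22.1, Myl4 at 2.62 and Myl7 at 0.0377 RPKM. Every pair of neighbours was separated without overlap between libraries in MI+FG-3149 and sham. In MI+IgG, Myl4 ranged from 2.67 to 34.5 RPKM and overlapped the ranges of both Myh7b and Myl7, while within each of the 5 libraries Myl4 lay above Myl7. Sham Myh7 thus lay close to the little-used Myh7b, at 34.3 to 44.5 RPKM against 19.6 to 25.04 RPKM, whereas with infarction it lay far above it.

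The heavy chain pair Myh6 and Myh7 moved in opposite directions in both infarcted groups. Myh7 had 2516, 4031, 2994, 4389 and 3538 CPM in the 5 MI+IgG libraries, against 291, 238 and 244 CPM in the 3 sham libraries. The lowest infarcted library stood several-fold above the highest sham library. Myh7 rose 13.6-fold in MI+IgG over sham (log2 fold change 3.76, SE 0.28, edgeR adjusted p = 4.75e-06). With FG-3149, Myh7 had 2124, 3585, 1806, 2248 and 2685 CPM, again entirely above sham, and rose 9.66-fold (log2 3.27, SE 0.27, edgeR adjusted p = 2.23e-05). Both comparisons share the 3 sham libraries.

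Myh6 stayed the most abundant heavy chain in all libraries, also per length. It had 23569, 21229, 22740, 20921 and 24871 CPM in MI+IgG, against 27637, 32518 and 30593 CPM in sham, with no overlap. Its log2 fold change was -0.42 (SE 0.07, edgeR adjusted p = 0.000185), a fall to 0.749 of the sham level. In MI+FG-3149 it had 23360, 23354, 25367, 24830 and 27275 CPM, also below every sham library, and fell by 0.28 on the log2 scale (SE 0.07, edgeR adjusted p = 0.00544). This last call rested on sham replicate 2, the highest for Myh6: without that library the log2 fold change was -0.23 and the edgeR adjusted p was 0.0505.

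Myh7b, at 95.9, 82.7, 84.1, 101 and 96.4 CPM in MI+IgG, lay below the 120, 137 and 154 CPM of sham and fell by 0.57 on the log2 scale (SE 0.15, edgeR adjusted p = 0.0106). Without sham replicate 3 the adjusted p was 0.0521. With FG-3149 its values spread from 78.9 to 135 CPM and overlapped sham (log2 fold change -0.29, SE 0.15, edgeR adjusted p = 0.164). Its sign matched that of Myh6, not that of Myh7, in both comparisons with sham.

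Counted over all members, 5 of the 7 that passed the filter on low counts were called in MI+IgG versus sham, where 33.7% of all 13434 tested genes were called. These were 2 higher (Myh7 and Mybpc3; 17.8% of all genes) and 3 lower (Myh6, Myh7b and Myl2; 15.9% of all genes), and the same 5 did not overlap between the libraries of both groups (35.8% of all genes). In MI+FG-3149 versus sham 4 of 7 were called, against 29.5% of all genes. Of these, Myh7 and Mybpc3 were higher (15.6% of all genes) and Myh6 and Myl2 lower (13.9% of all genes), and the same 4 did not overlap (32.2% of all genes). Between MI+FG-3149 and MI+IgG 0 of 7 were called by edgeR and 0 by DESeq2, where edgeR called 1.07% of all genes (0.916% higher and 0.156% lower) and DESeq2 called 278 genes. All 7 overlapped between the libraries of both antibodies, where 3.14% of all genes did not. The members with an unadjusted edgeR p under 0.05 in that last comparison were Myh7, Myh6 and Myl4, and 13.8% of all tested genes had such a p. Myl7 failed the filter and has no test across genes.

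The share of Myh7 in the sum of Myh6 and Myh7 put both movements into 1 number. It was 9.11 ± 2.50% in MI+FG-3149 (SD, n = 5), 13.4 ± 3.17% in MI+IgG (SD, n = 5) and 0.853 ± 0.168% in sham (SD, n = 3). Each infarcted group lay wholly above sham, with an exact two-sided permutation p of 0.0179, the smallest that 56 groupings allow. Adjusted over the 9 share comparisons made, this became 0.0804, which does not pass 0.05. By library the share was 8.34, 13.3, 6.65, 8.30 and 8.96% with FG-3149, against 9.65, 16.0, 11.6, 17.3 and 12.5% with IgG. The FG-3149 values were lower by 4.30 percentage points on average, and 4 of the 5 lay under every IgG value, while replicate 2 lay inside the IgG range (exact two-sided permutation p = 0.0635, adjusted 0.190). Myh6 and Myh7 together summed to 27327 ± 1626 CPM with FG-3149, 26160 ± 1302 CPM with IgG and 30507 ± 2430 CPM in sham, so the gain of Myh7 was smaller than the loss of Myh6 in these units.

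For single genes the difference between the antibodies was as follows. Myh7 had a log2 fold change of -0.49 in MI+FG-3149 against MI+IgG, with a 95% interval from -0.93 to -0.04 and an edgeR adjusted p of 0.319. Of its 5 FG-3149 libraries, 3 lay below the lowest IgG library and 2 inside the IgG range. Myh6 had a log2 fold change of 0.13 (95% interval 0.00 to 0.26, edgeR adjusted p = 0.350), and Myh7b one of 0.28 (95% interval -0.00 to 0.57, edgeR adjusted p = 0.371). All 3 intervals are unadjusted, and their signs were opposite to those of the same genes in MI+IgG versus sham. The comparisons share the IgG libraries, so this opposition is not a separate result.

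**Figure D1:**
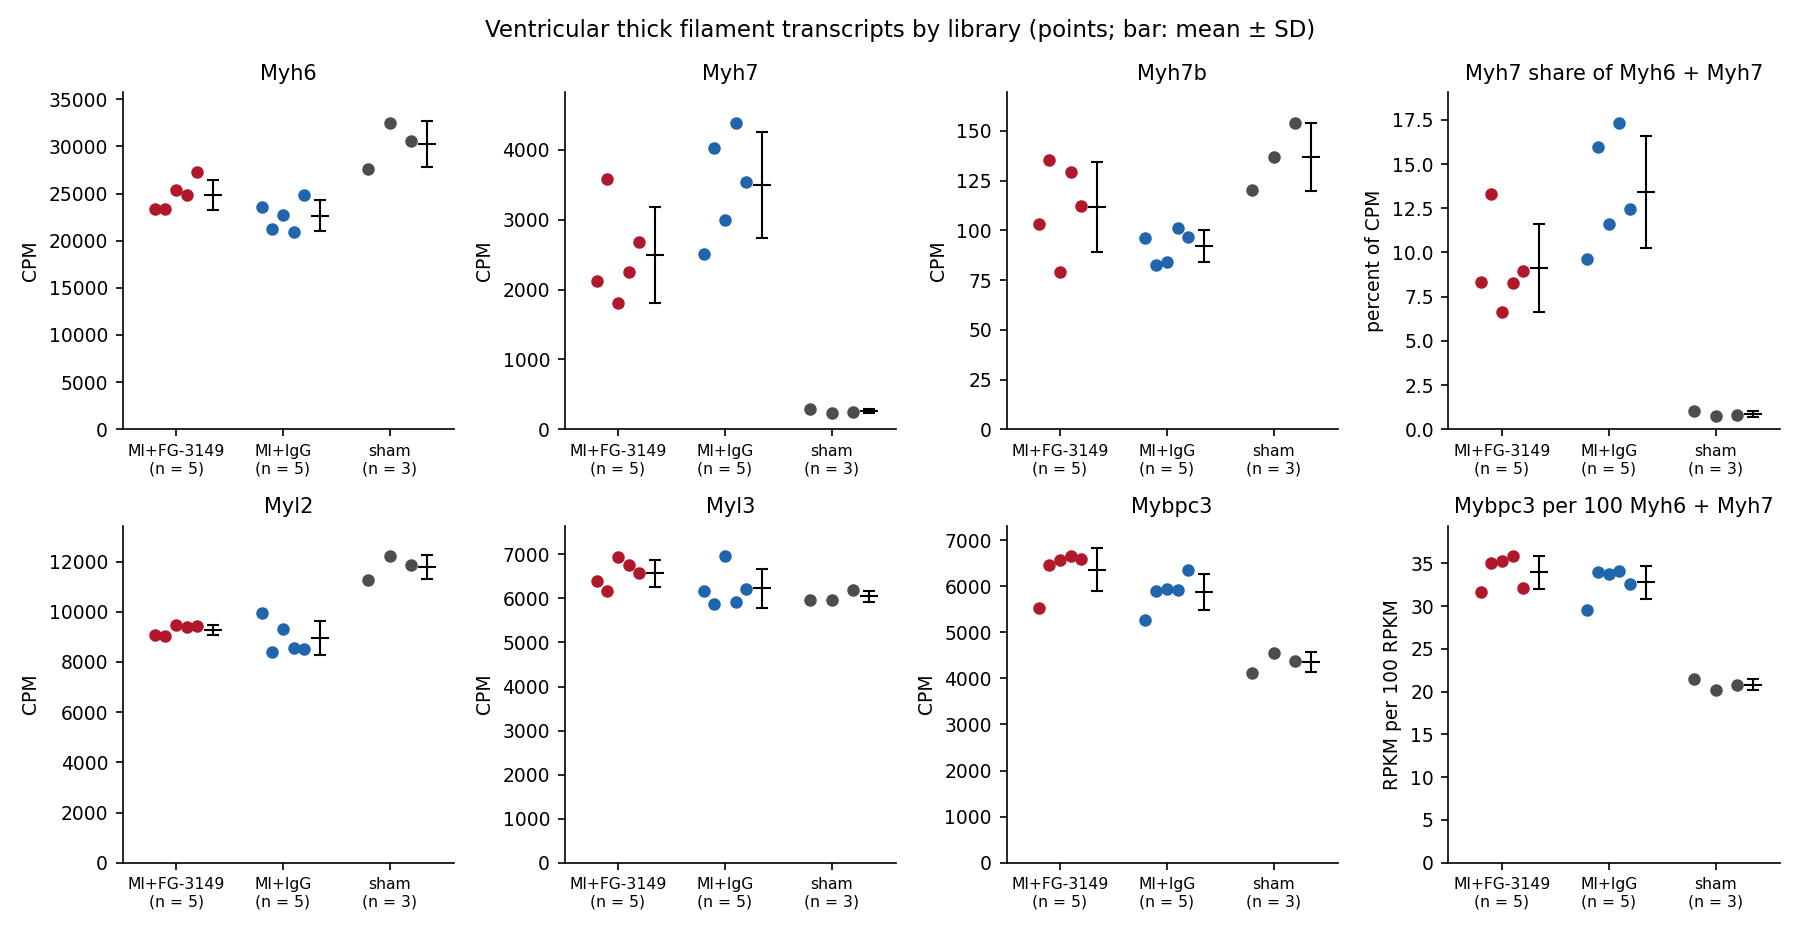
Each point is a library, placed by group (MI+FG-3149, MI+IgG, sham) on the x axis, with CPM, percent of CPM or RPKM per 100 RPKM on the y axis, and the bar gives mean ± SD. Myh7 lies at 1806 CPM or more in all 10 infarcted libraries and at 291 CPM or less in sham, Myh6 and Myl2 lie lower in all infarcted libraries than in sham, Mybpc3 lies higher, and Myl3 overlaps.

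Myh6 and Myh7 are neighbours with similar coding sequence, so the reads of one could be counted for the other. Myh6 lies at chr14:54941921-54966607 and Myh7 at chr14:54970688-54994549 (mm10), both on the minus strand, with 4080 bases between them. Of all stretches of 75 bases, the read length, 15.5% in the longer Myh6 transcript and 15.5% in Myh7 occurred in both genes. How shared reads were assigned is unknown here. The exon counts allowed a direct look. In MI+IgG every one of the 41 Myh7 exons lay above sham in all libraries. Their ratios ran from 7.70 to 30.2, with a median of 16.4. The ratio of 30.2 belongs to exon 2. That exon held 0.0477 to 0.230 CPM in sham and exon 1 at most 0.0445 CPM, under 3 counts in every sham library. The 15 Myh7 exons placed without a stretch shared with any other gene behaved alike, with 15 of 15 above sham and the same median of 16.4. For Myh6, given as 40 exon entries with 1 exon in 2 versions, 36 lay below sham in all MI+IgG libraries. The 40 entries had ratios of 0.661 to 0.840 and a median of 0.756. The 20 placed without a shared stretch had a median of 0.749. These placements are approximate, because the summed exon lengths differed from the reference transcripts. As every Myh7 exon lay above sham, that direction in Myh7 does not depend on them.

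Along the transcripts the antibody groups differed at the 5′ end. For Myh7 the ratio of MI+FG-3149 to MI+IgG was 2.89, 1.96 and 1.38 at the first, second and next exon from the 5′ end. At the other 38 exons it was 0.608 to 0.868 (median 0.698). The first Myh7 exon averaged only 0.860 CPM with FG-3149 and 0.297 CPM with IgG. The first exon of Myh6 had a ratio of 4.29, that of Mybpc3 4.97 and that of Myl2 5.99, while the medians over all exons were 1.09, 1.09 and 1.00. The first exon of Myl2 held 1.56, 1.71, 1.72, 1.86 and 1.53% of the exon counts of its gene with FG-3149, against 0.290, 0.148, 0.0862, 0.672 and 0.269% with IgG and 0.240, 0.248 and 0.230% in sham. The FG-3149 libraries were thus separate from both other groups.

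This was not particular to myosin. Over 788 genes with 1 transcript of at least 4000 exon bases and at least 500 counts in every library, the median share of counts in the first exon was 0.891 to 1.07% with FG-3149, 0.315 to 0.524% with IgG and 0.238 to 0.308% in sham. In 324 of these genes (41.1%) all FG-3149 libraries lay above all IgG libraries, and in 0 all lay below. The share of counts on the 5′ side of the transcript midpoint in the same genes overlapped between the antibodies, at 39.7 to 43.7% with FG-3149 and 40.6 to 43.3% with IgG, and was 37.8 to 39.6% in sham. First exons hold little of most members' counts (at most 1.86% in Myl2, 0.324% in Mybpc3 and 0.043% in Myh7), but 13.5 to 14.5% in Myl3 with FG-3149. The excess was not confined to first exons. Exon 2 of Myl2 averaged 1234 CPM with FG-3149 and 900 CPM with IgG, without overlap, where the whole gene averaged 9280 and 8957 CPM. All FG-3149 libraries lay above all IgG libraries in 2 of 7 Myl2 exons, 4 of 40 Myh6 exon entries and 0 of 41 Myh7 exons. In 0 of these exons did all lie below. Whether this coverage of the transcript start bears on the gene values between the antibodies was not tested.

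**Figure D2:**
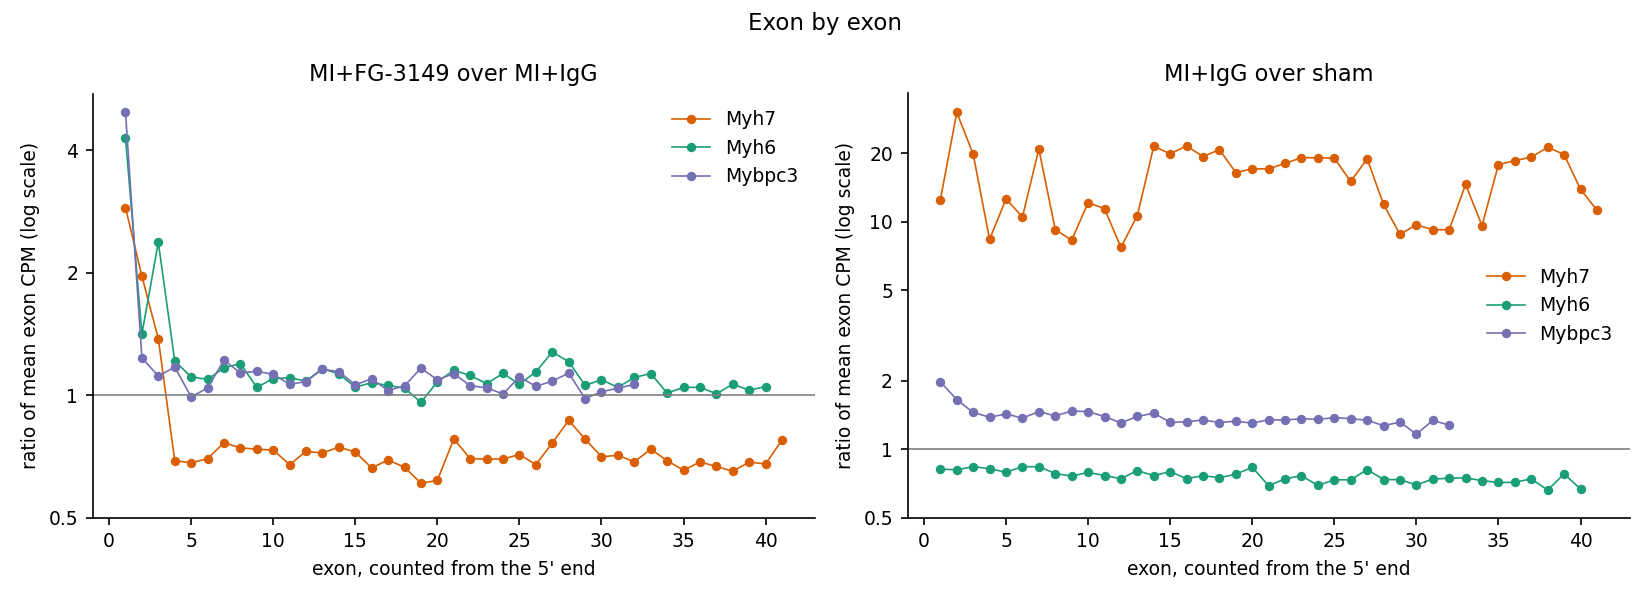
Ratio of mean exon CPM on a log axis, for MI+FG-3149 over MI+IgG (left) and MI+IgG over sham (right), by exon counted from the 5′ end, with 1 line per gene. Against sham the Myh7 exons lie between 7.70 and 30.2 and those of Myh6 between 0.661 and 0.840, and between the antibodies the first exons of Myh7, Myh6 and Mybpc3 rise to 2.89, 4.29 and 4.97.

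**Figure D3:**
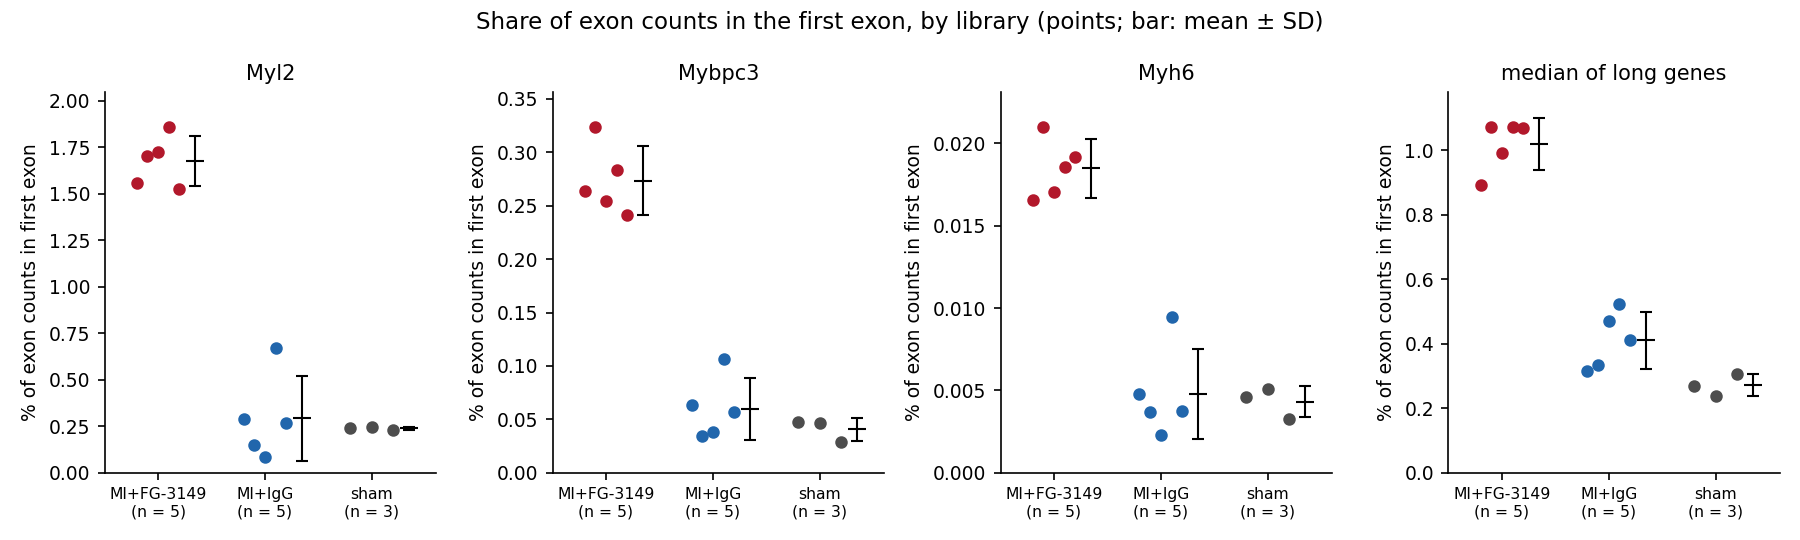
Percent of a gene's exon counts that fell in its first exon, by library and group, for Myl2, Mybpc3, Myh6 and the median of 788 long genes, with mean ± SD as bars. In all 4 panels the 5 MI+FG-3149 libraries lie above every MI+IgG and sham library.

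A known set of factors acts on the heavy chain locus. It includes thyroid hormone receptors and their partners, which favour Myh6 over Myh7, and the deiodinases that supply or remove the hormone. The repressors Sox6, Pura and Purb and the antisense transcript Mhrt belong to it too. The list counted here held 23 genes, also Tead1, Tead4, Med13, Gata4, Gata6, Mef2a, Mef2c, Mef2d, Srf and the genes of the microRNAs shown above. Of 19 tested members of this list, 2 were higher, 9 lower and 8 not called in MI+IgG versus sham, with a median log2 fold change of -0.14 beside 0.00 over all tested genes, of which 17.8% were higher and 15.9% lower. In MI+FG-3149 versus sham 2 were higher, 8 lower and 9 not called, where 15.6% of all genes were higher and 13.9% lower. The thyroid hormone receptors Thra (log2 -0.52, SE 0.13, edgeR adjusted p = 0.00698) and Thrb (log2 -0.32, SE 0.10, edgeR adjusted p = 0.0193) fell in MI+IgG, as did their partner Rxrg (log2 -0.71, SE 0.10, edgeR adjusted p = 8.93e-05). Sox6, a repressor of slow muscle genes, fell by 0.52 on the log2 scale (SE 0.11, edgeR adjusted p = 0.00142). Thra, Thrb and Pura were named after their values were seen. Pura, which binds purine-rich single strands, rose by 0.52 (SE 0.14, edgeR adjusted p = 0.00701).

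Dio2, which converts thyroxine to the active hormone, was the second gene of the list to rise. It had 28.7, 56.4, 33.6, 31.5 and 32.4 CPM in MI+IgG, against 1.35, 1.15 and 1.33 CPM in sham. Its log2 fold change was 4.84 (SE 0.35, edgeR adjusted p = 1.85e-06), beside 3.76 for Myh7. With FG-3149 it had 23.0, 25.04, 19.3, 17.8 and 15.04 CPM, wholly above sham and wholly below the IgG libraries. The difference between the antibodies was -0.87 on the log2 scale (SE 0.19) and did not pass (edgeR adjusted p = 0.0591).

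Between the antibodies 1.07% of all tested genes were called, and 0.916% were called higher. Mhrt (listed as D830015G02Rik), a heart-specific long non-coding RNA, was the 1 regulator of 19 tested that was called in that comparison. It lies on the plus strand at chr14:54968787-54974349 and overlaps Myh7 by 3662 bases. It had 36.4, 36.8, 40.7, 39.8 and 33.6 CPM with FG-3149, 29.0, 23.1, 29.7, 28.0 and 29.6 CPM with IgG, and 40.8, 48.6 and 48.5 CPM in sham. The 3 groups did not overlap, with FG-3149 between the others, although its highest library and the lowest sham library almost met. Mhrt was higher in MI+FG-3149 than in MI+IgG (log2 0.43, SE 0.08, edgeR adjusted p = 0.0102, 5 of 5 libraries), and fell in MI+IgG against sham (log2 -0.72, SE 0.09, edgeR adjusted p = 7.47e-06) and in MI+FG-3149 against sham (log2 -0.30, SE 0.09, edgeR adjusted p = 0.0163). In its 5 exons the ratio of FG-3149 to IgG was 1.25 to 2.15, highest in the first exon, and the longest exon, which held most counts, stood at 1.35. Whether strand was used in counting is not given in the sources used here. How reads were assigned where Mhrt and Myh7 overlap was not tested. The longest Mhrt exon averaged 22.4 CPM in MI+IgG and 36.2 CPM in sham. The Myh7 exon that overlaps part of it averaged 200 CPM in MI+IgG and 11.2 CPM in sham. The 7 Myh7 exons within the span of Mhrt had a median ratio of 18.5 in MI+IgG over sham, and the 34 exons outside it 14.8.

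The sequences before the annotated starts of both heavy chains are shown because the neighbours moved in opposite directions, and those of both atrial light chains because they stood out in the same libraries (described with them). They run 5′ to 3′ over the 250 bases before the start, from RefSeq on GRCm38.p6. Capitals mark CATTCC, the core bound by TEAD factors, in either direction, and the CArG box, bound by serum response factor.
Myh6, chr14:54966608-54966857, minus strand: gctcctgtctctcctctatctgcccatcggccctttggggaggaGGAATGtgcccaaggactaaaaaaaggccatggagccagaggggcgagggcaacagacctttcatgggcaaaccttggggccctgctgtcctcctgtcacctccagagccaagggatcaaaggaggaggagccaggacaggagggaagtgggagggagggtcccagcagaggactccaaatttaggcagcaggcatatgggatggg
Myh7, chr14:54994550-54994799, minus strand: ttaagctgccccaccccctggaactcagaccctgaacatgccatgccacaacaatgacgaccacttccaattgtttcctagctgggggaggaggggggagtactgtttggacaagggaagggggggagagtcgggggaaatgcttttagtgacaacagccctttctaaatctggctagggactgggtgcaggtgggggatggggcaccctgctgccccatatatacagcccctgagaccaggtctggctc
Myl4, chr11:104550413-104550662, plus strand: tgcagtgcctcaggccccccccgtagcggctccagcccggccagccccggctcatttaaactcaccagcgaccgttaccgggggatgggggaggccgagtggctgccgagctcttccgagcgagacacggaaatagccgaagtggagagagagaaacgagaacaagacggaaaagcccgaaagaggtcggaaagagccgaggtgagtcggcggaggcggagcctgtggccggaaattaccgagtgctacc
Myl7, chr11:5898783-5899032, minus strand: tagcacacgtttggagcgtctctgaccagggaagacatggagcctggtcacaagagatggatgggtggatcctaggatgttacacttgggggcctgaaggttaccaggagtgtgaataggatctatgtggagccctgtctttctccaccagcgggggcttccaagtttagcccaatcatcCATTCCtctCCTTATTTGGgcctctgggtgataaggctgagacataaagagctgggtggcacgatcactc
Searched on both strands, with 50 bases after the start included, CATTCC occurred once in Myh6 and once in Myl7, and in 14.7% of all 32851 promoters of that length. The CArG box occurred in Myl7, and in 1.63% of all promoters, and the marked matches did not overlap each other. TATAAA began just after the annotated first base of Myh6, and 13.6% of promoters held it. No match to the thyroid receptor core AGGTCA lay in any of the 4 windows (16.3% of all promoters), which says only that these letters are not there. At the annotated start of Myl4, the first exon had 0 CPM in every MI+IgG library, while the third exon averaged 1.91 CPM in that group. Whether the Myl4 transcripts of these libraries began at the annotated start was not tested, so the Myl4 window may not be the one used.

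The ventricular light chains split. Myl2 had 9956, 8415, 9327, 8564 and 8526 CPM in MI+IgG, against 11269, 12216 and 11860 CPM in sham, without overlap, and fell by 0.40 on the log2 scale (SE 0.06, edgeR adjusted p = 5.71e-05). With FG-3149 it had 9068, 9052, 9454, 9396 and 9430 CPM, the narrowest range of the 3 groups, and fell by 0.34 (SE 0.06, edgeR adjusted p = 0.000332). Myl3 had 6384, 6178, 6944, 6766 and 6568 CPM with FG-3149, 6157, 5878, 6958, 5923 and 6218 CPM with IgG and 5963, 5975 and 6197 CPM in sham. These ranges overlapped, and no comparison called Myl3 (log2 fold change 0.12 in MI+FG-3149 versus sham, 95% interval -0.01 to 0.25, and 0.04 in MI+IgG versus sham, 95% interval -0.08 to 0.17). The ratio of Myl2 to Myl3 RPKM was 1.93 to 2.08 with FG-3149, 1.90 to 2.29 with IgG and 2.68 to 2.90 in sham, so the regulatory chain was less abundant relative to the essential chain in all 10 infarcted libraries.

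Between the antibodies the libraries overlapped for both ventricular light chains, and neither was called. The log2 fold change of MI+FG-3149 over MI+IgG was 0.05 for Myl2 (95% interval -0.06 to 0.16, edgeR adjusted p = 0.718) and 0.08 for Myl3 (95% interval -0.03 to 0.19, edgeR adjusted p = 0.544).

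Mybpc3 moved against Myh6 and Myl2. It had 5274, 5893, 5950, 5926 and 6349 CPM in MI+IgG, against 4115, 4548 and 4387 CPM in sham, and rose by 0.43 on the log2 scale (SE 0.07, edgeR adjusted p = 0.000107). In MI+FG-3149 it had 5529, 6462, 6566, 6652 and 6591 CPM and rose by 0.55 (SE 0.07, edgeR adjusted p = 2.46e-05). No infarcted library overlapped sham. Exon by exon, 31 of its 32 exons lay above sham in all MI+IgG libraries, with a median ratio of 1.36. Set against the heavy chains, Mybpc3 stood at 34.0 ± 1.94 RPKM per 100 RPKM of Myh6 and Myh7 with FG-3149 (SD, n = 5), 32.8 ± 1.95 with IgG (SD, n = 5) and 20.8 ± 0.622 in sham (SD, n = 3). The antibodies did not differ detectably (log2 0.11, 95% interval -0.01 to 0.24, edgeR adjusted p = 0.408).

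**Figure D4:**
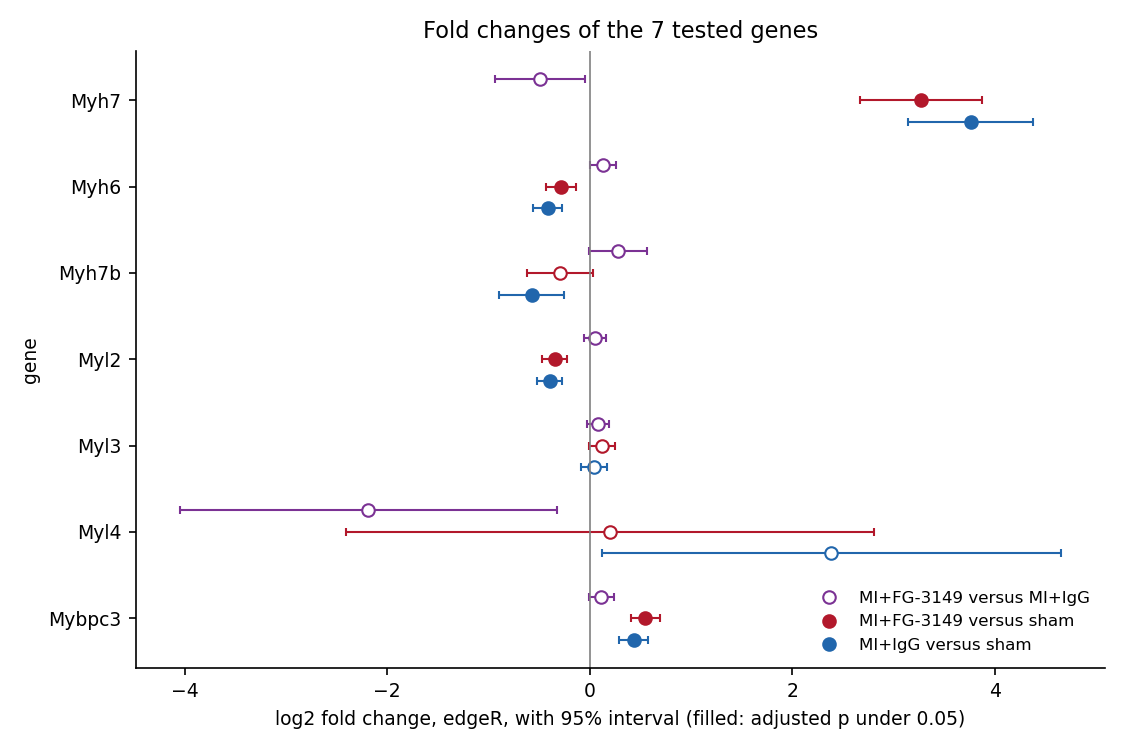
Log2 fold change (x axis) with its unadjusted 95% interval for the 7 tested genes (y axis) in 3 comparisons, with filled points at an edgeR adjusted p under 0.05. Myh7 lies at 3.27 and 3.76 in the comparisons with sham, all points of MI+FG-3149 versus MI+IgG are open, and the widest intervals belong to Myl4.

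The atrial light chains were low in 11 of 13 libraries and stood out in the other two. Myl7, the atrial regulatory chain, had 0, 0.153, 0.273, 0.0930 and 0 CPM with FG-3149, which is 0 to 3 counts. With IgG it had 0.145, 0.113, 0.115, 8.36 and 13.7 CPM, which is 2 counts in each of replicates 1 to 3 and 142 and 178 counts in replicates 4 and 5. In sham it had 0, 0.0677 and 0 CPM, and where a library held 0 counts, levels up to 0.238 to 0.256 CPM (3 counts) were not detectable at this depth. Myl4, the atrial essential chain, followed the same 2 libraries. It had 2.22, 3.05, 1.91, 2.79 and 2.93 CPM with FG-3149, 2.32, 2.53, 3.04, 21.5 and 30.6 CPM with IgG, and 2.30, 1.22 and 3.40 CPM in sham. Apart from MI+IgG replicates 4 and 5, Myl4 thus lay between 1.22 and 3.40 CPM everywhere, with no order between the groups.

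Relative to the ventricular chains even these 2 libraries held little. Myl7 made up 0.0975 and 0.160% of Myl2 and Myl7 together in MI+IgG replicates 4 and 5 and at most 0.00289% in any other library, and Myl4 0.362 and 0.490% of Myl3 and Myl4 together, against at most 0.0548% elsewhere. Averaged by group, the log2 fold change of Myl4 was 2.38 in MI+IgG versus sham (SE 1.02, edgeR adjusted p = 0.0986) and -2.19 in MI+FG-3149 versus MI+IgG (SE 0.84, edgeR adjusted p = 0.287). Without both libraries these became 0.22 and -0.02, an alternative added after the data were seen. DESeq2 called Myl4 in MI+IgG versus sham (adjusted p = 0.0166). The Myl7 share had an exact two-sided permutation p of 0.125 in MI+IgG versus sham and 0.183 in MI+FG-3149 versus MI+IgG, and the Myl4 share 0.25 and 0.167 (adjusted over the 9 comparisons, 0.274 to 0.321).

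Other genes of atrial and related myocytes were read in the same libraries. Sln, the atrial inhibitor of the calcium pump, had 9 and 30 counts in MI+IgG replicates 4 and 5 and 0 or 1 count in the other 11 libraries. Mybphl, a relative of Mybpc3 known from atrium and conduction system, had 1.06 and 1.38 CPM there and at most 0.171 CPM elsewhere. Cacna2d2, a calcium channel subunit, had 7.83 and 9.37 CPM against 2.65 to 5.36 CPM elsewhere, and Cntn2, a conduction system marker, 21.1 and 28.9 CPM against 3.05 to 17.2 CPM. Bmp10, a growth factor of the right atrium, was at or near 0 in all libraries, with at most 0.16 CPM. Kcnj3 and Kcnj5, the channel subunits of the atrial acetylcholine-gated current, did not stand out in these 2 libraries (21.7 and 22.6 CPM of Kcnj3 against 19.8 to 36.8 CPM elsewhere). Without Myl4, Myl7 and Nppa, which ventricle also makes under load, the 12 remaining atrial genes summed to 227 to 261 CPM with FG-3149, 232 to 275 CPM with IgG and 278 to 296 CPM in sham. The part of atrial or conduction tissue in the values of both libraries was not tested. The Myh7 share was 17.3 and 12.5% in them and 9.65 to 16.0% in the other 3 IgG libraries, and without both the log2 fold change of Myh7 over sham was 3.62, so this result did not rest on them.

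**Figure D5:**
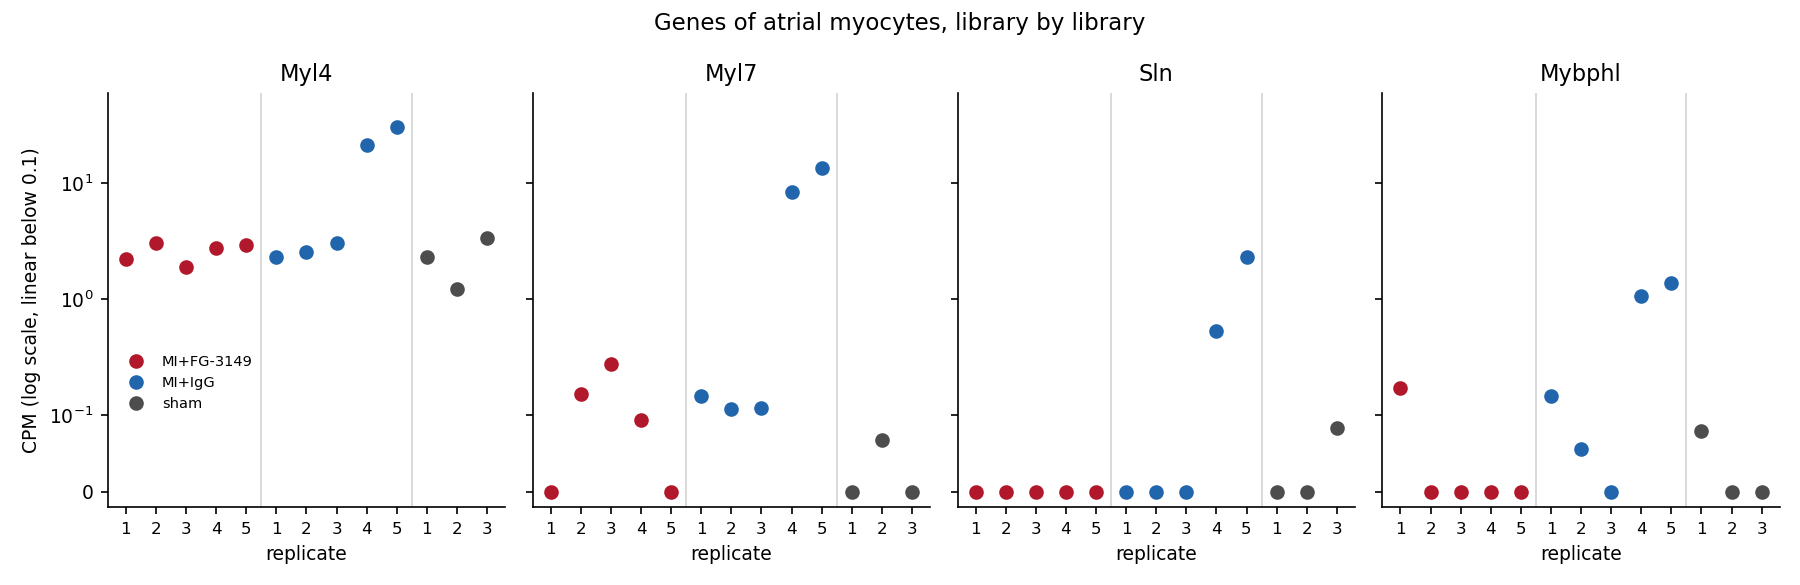
CPM of Myl4, Myl7, Sln and Mybphl in each library (x axis: replicate within MI+FG-3149, MI+IgG and sham; y axis: log scale, linear below 0.1). MI+IgG replicates 4 and 5 lie at 21.5 and 30.6 CPM for Myl4 and at 8.36 and 13.7 CPM for Myl7, above all other libraries, and are also the highest for Sln and Mybphl.

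Transcripts of proteins that assemble and anchor the thick filament were counted next. Of 14 tested partners, 7 were higher, 2 lower and 5 not called in MI+IgG versus sham (median log2 fold change 0.15), where 17.8% of all tested genes were higher and 15.9% lower. In MI+FG-3149 versus sham 6 were higher, 2 lower and 6 not called (median 0.18), where 15.6% of all genes were higher and 13.9% lower. Of these partners 0 were called between the antibodies, where 1.07% of all genes were. Mybpc2, the fast skeletal form of the binding protein, averaged 60.5 CPM in MI+IgG, against 25.6 CPM in sham (log2 1.24, SE 0.17, edgeR adjusted p = 0.000112). The M-band proteins Myom2 (log2 0.56, SE 0.11, edgeR adjusted p = 0.00100) and Myom3 (log2 0.81, SE 0.15, edgeR adjusted p = 0.000595) rose as well. Unc45b, the chaperone that folds the myosin head, fell by 0.37 on the log2 scale (SE 0.06, edgeR adjusted p = 0.000287), in the direction of Myh6. Titin, Ttn, named after its values were seen, was not called in any comparison.

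Myosins of other muscle and of non-muscle cells were read beside the cardiac ones. The adult and developmental skeletal heavy chains Myh1, Myh2, Myh3, Myh4, Myh8, Myh13 and Myh15 failed the filter on low counts, and no group mean exceeded 0.532 CPM. Of the 6 other muscle myosins tested, Mylpf, the fast skeletal regulatory chain, was the 1 that fell in MI+IgG versus sham (0.584 CPM against 1.24 CPM, log2 -1.08, SE 0.34, edgeR adjusted p = 0.0189), and Myh14, which is also made outside muscle, the 1 that rose in MI+FG-3149 versus sham (155 CPM against 125 CPM, log2 0.30, SE 0.09, edgeR adjusted p = 0.0168). Of all tested genes, 15.9% fell in MI+IgG and 15.6% rose in MI+FG-3149 against sham. Myl1, the fast skeletal essential chain, averaged 37.1 CPM with FG-3149, 34.4 CPM with IgG and 23.8 CPM in sham and was not called. Of the 5 non-muscle myosins 0 were called between the antibodies, where 1.07% of all genes were. Against sham 4 rose in both infarcted groups, where 17.8% (MI+IgG) and 15.6% (MI+FG-3149) of all genes did. Median log2 fold changes of the 5 were 0.48 in MI+IgG and 0.31 in MI+FG-3149. Those that rose were the heavy chain Myh10 and the light chains Myl6, Myl12a and Myl12b. Myl12b averaged 116 CPM in MI+IgG, against 82.1 CPM in sham (log2 0.50, SE 0.06, edgeR adjusted p = 4.36e-06), and Myl6 189 CPM against 133 CPM (log2 0.51, SE 0.06, edgeR adjusted p = 1.25e-05).

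After the group mean was removed from log2 CPM, Pearson's r over the 10 infarcted libraries was -0.39 between Myh7 and Myh6, 0.58 between Myh7 and Myh7b, -0.69 between Myh7 and Myl2 and -0.64 between Myh7 and Myl3. The genes were read from the same libraries, each scaled to its own total, and no test was made. Among 11902 genes, those most like Myh7 by this measure were Naa40, an amino-terminal acetyltransferase, Ppfia1, Med15, a subunit of the Mediator complex, Dmwd and Wnt11, a secreted signal, with r of 0.90 to 0.91. After leaving out the 2 libraries farthest from the Myh7 median, MI+FG-3149 replicate 2 and MI+IgG replicate 1, r was 0.77 to 0.84 (n = 8).

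Among those most like Myh6 were Ccdc47, Ireb2, an iron regulatory protein, Ccrn4l and Pfkm, the muscle phosphofructokinase, with r of 0.93 to 0.95, and of 0.87 to 0.92 without replicate 5 of each group (n = 8). For the atrial chains the likeness rests on MI+IgG replicates 4 and 5, so no r is given. The gene most like Myl7 was Myl4, followed by Wrnip1, Cacna2d2, Bag3, a co-chaperone, and Adrbk2, and the genes most like Myl4 were Incenp, a mitotic protein, 4930455F23Rik, Ormdl3, Pacsin3 and Nfatc2. Most of these differed little in size: Bag3 had 263 and 277 CPM in the 2 libraries and 229 to 243 CPM in the other 3 IgG libraries, while Incenp had 7.07 and 8.29 CPM there and 5.08 to 5.23 CPM in the other 3.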

How the data were processed

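The values deposited by the authors are estimated counts for genes and exons and, in another table, RPKM of transcripts, per the file headers. The genome build was mm10, per the submitters' processing notes, and the aligner and counter are not given in the sources used here. Per the labels' protocols, libraries were made with a stranded mRNA kit from 500 ng of RNA and read as single reads of 75 bases. Of 36172 gene entries, 379 that repeated a symbol were left out (0.0% of reads). Counts were rounded, kept by filterByExpr (13434 genes), scaled by TMM and fitted over all 13 libraries with edgeR 4.0.16 (quasi-likelihood, robust, no covariate), and adjusted by Benjamini-Hochberg over all tested genes, with calls at 0.05. CPM use TMM-scaled totals, and RPKM were summed over the transcripts of a gene. Shares were compared by exact permutation. Values are mean ± SD, and the SE is the absolute log2 fold change over the square root of F. No label ties a library to 1 animal, so p-values measure the spread between these libraries. DESeq2 1.42.0, limma 3.58.1 on log2(RPKM + 1) and log2(RPKM + 0.1), other scalings, filters and designs, and leaving out each library were tried. The fit was tested on simulated data. Named genes were all members, up to 4 per list with the smallest p in MI+IgG versus sham, and the 5 genes most like Myh6, Myh7, Myl4 and Myl7, of which 1 is not reported here. Members and lists were chosen with earlier results of these data known.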

Additional observations from a re-analysis of the deposited data

Results flagged for a closer look

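Of 22 checks of whether 1 library of a group of 5 stood apart from the rest, 1 was positive, about as many as chance gives at 1 in 20. Mybpc3 in MI+FG-3149 replicate 1 had 5529 CPM, against 6462 to 6652 CPM in the other 4, a gap of 0.831 of the whole range where 0.71 is the limit. The library lay above all sham libraries, and leaving out any 1 library kept the log2 fold change of Mybpc3 over sham between 0.51 and 0.59.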

How the results depend on the processing

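Every call of a member in the comparisons with sham kept its direction under each alternative run. With 1 library left out, members called numbered 4 to 5 in MI+IgG versus sham, 3 to 4 in MI+FG-3149 versus sham and 0 between the antibodies. The calls lost were those of Myh7b in MI+IgG without sham replicate 3 and of Myh6 in MI+FG-3149 without sham replicate 2. The log2 fold change of Myl3 in MI+IgG versus sham, never called, ran from -3.12e-05 (without MI+IgG replicate 3) to 0.0651 with 1 library left out. That of Myl4 in MI+FG-3149 versus sham, 0.20, ran from -0.13 (without sham replicate 2) to 0.58 with 1 library left out and was -0.86 with a replicate block, and the difference in Myl4 share ran from -0.00721 to 0.00998 percentage points with 1 library left out. The causes were not tested. Genes called between the antibodies numbered 144, and 83 in a fit of both groups alone, 278 with DESeq2, 215 with the replicate block, 68 to 271 with 1 library left out (76, 74 and 84 without MI+FG-3149 replicates 3, 4 and 5, and 271, 68 and 90 without MI+IgG replicates 1, 2 and 5), and 70 without both MI+IgG libraries high for Myl4 and Myl7. Replicate numbers did not pair the libraries: correlations of same-numbered deviations from group means ran from -0.042 to 0.178, and 3 of 10 infarcted libraries correlated best with their own number. The block left 5, 4 and 0 members called in the 3 comparisons. Depth limits Myl7, at 0 to 3 counts in 11 libraries, and 3 sham libraries limit the exact tests against sham.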
